A study of Homo sapiens with 6 samples.

Results

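The genes described here are those whose expression was lowest in DMS53 cells with enforced ONECUT2 (OC2) relative to their control. A gene was taken when its 3 control libraries held at least 200 summed counts and its mean CPM (counts divided by the library's total and scaled to a common size) was at least 8 times higher in control than in OC2-OE. Of the 60 genes that met both conditions (0.481%), IGFBP3, IGFBP5 and GRP were left out by name, and 57 genes remained of 12476 genes at the count minimum and 62696 genes in the files. DMS53 is an established small cell lung cancer (SCLC) line with neuroendocrine (NE) features. The control cells carried an empty lentiviral vector and the OC2-OE cells a lentiviral vector for OC2 tagged with mGFP. Both were selected with puromycin, so that the comparison is between constitutively transduced populations of 1 line, with 3 libraries in each group. The study describes the 3 libraries of a condition as independent experiments, while the labels do not say how the cultures were kept apart, and the spread between libraries may be technical.

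OC2 is a transcription factor of the ONECUT family, which binds DNA through a cut domain and a homeodomain and acts in the development of liver, endocrine pancreas and nervous system. NE cells of the lung and gut store amines and peptides in granules, respond to neurotransmitters and descend from progenitors that use proneural transcription factors. The 57 genes are not members of 1 pathway. They include genes of epithelial secretion, receptors for neurotransmitters and hormones, transporters and enzymes, a few transcription regulators and a number of transcripts that code for no known protein.

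The libraries held between 16533284 and 19099337 counts. ONECUT2 had 24.3, 24.2 and 23.8 CPM in control and 3925.6, 4035.8 and 4057.7 CPM in OC2-OE replicates 1, 2 and 3, a count that joins the introduced and the endogenous sequence. The 8 NE markers went both ways. By edgeR, CHGB, SYP, INSM1, NCAM1 and DDC were called lower (log2 fold changes of −0.14, −0.44, −1.93, −2.0 and −2.52), CHGA and SCG2 higher (1.06 and 1.5), and SCG3 was not called. Their sum, between 2483.1 and 2500.2 CPM in control and between 3227.7 and 3270.1 in OC2-OE, includes SCG2, which had 41463 counts in control and 124376 in OC2-OE. The 4 epithelial markers summed to between 3800.7 and 3885.6 and between 3170.4 and 3229.2. Markers of other cells were low, with 7 fibroblast genes at 22.05 to 24.87 and 28.96 to 32.96 CPM, 5 leukocyte genes at 0.469 to 0.733 and 2.23 to 2.79 CPM with CD3E at 0, and 4 endothelial genes at 12.5 to 14.7 and 4.24 to 4.81 CPM. The 4 genes of dying or stressed cells summed to 259.9 to 271.6 and 422.8 to 454.0 CPM. The part of these shifts in the levels below was not tested, and in bulk libraries fewer cells of a type cannot be told apart from less RNA per cell.

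The ratio of mean CPM in OC2-OE to that in control ran from 0.0131 to 0.124 over the 57 genes, with a median of 0.0927. Expressed as a fold, they were 8.05 to 76.3 times lower, with a median of 10.8. The ratio was at most 0.1 in 34 genes, at most 0.0625 in 10 and at most 0.05 in 4. Every one of the 57 was tested and called lower by edgeR's quasi-likelihood test at an adjusted p under 0.001, where 28.7% of all 17307 tested genes were called lower. In all 57 the highest OC2-OE library lay below the lowest control library, which held for 33.0% of tested genes. Since the genes were chosen on this contrast, these counts describe the choice and are no result about the genes. The lowest control library exceeded the highest OC2-OE library by 4.5 to 43.2 times, with a median of 8.2.

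**Figure D1:**
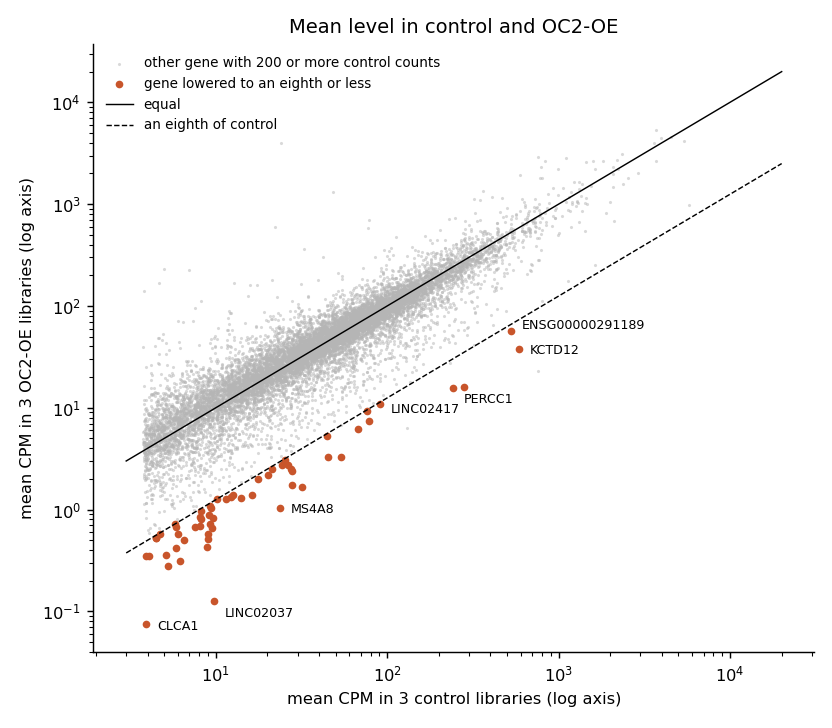
Mean CPM in the 3 control libraries (horizontal log axis) and the 3 OC2-OE libraries (vertical log axis) of genes with at least 200 summed control counts. The 57 genes (orange) lie on or below the dashed line where control is 8 times OC2-OE, with LINC02037 and CLCA1 farthest from it. Grey points below the line are genes left out by name.

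Genes at either side of the thresholds had similar values. Just inside the ratio lay LIPG and ADRA2A at 0.123, and LCN15 and CYP4B1 at 0.124. Just outside lay CDHR3 at 0.128, LINC02418 at 0.129, and TRPM8 and TGFB2 at 0.13. At the count minimum, ENSG00000254290 and CLCA1 had 208 control counts each, and the genes next below it were ATP6V1B1 with 190 and CORO1A-AS1 with 178. By comparison, 954 genes (7.65%) at the count minimum had a ratio of at most 0.5, and 26 genes (0.208%), ONECUT2 among them, were at least 8 times higher in OC2-OE.

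The 57 genes were modestly expressed in control. Their mean control CPM ran from 3.92 to 588, and its median of 9.73 lay below that of all genes at the count minimum, 37.9, which 11 of the 57 exceeded. Per exonic length, as TPM (counts per exonic length, scaled to a common sum), their control level had a median of 17.5, against 28.0 for all genes at the count minimum. Summed over the 57, expression was 2618, 2645 and 2684 CPM in control replicates 1, 2 and 3 and 226.0, 219.7 and 219.2 CPM in OC2-OE, a ratio of 0.0837. The 4 genes with the highest CPM, KCTD12, ENSG00000291189, ENSG00000279930 and PERCC1, held 61.8% of the control sum.

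**Figure D2:**
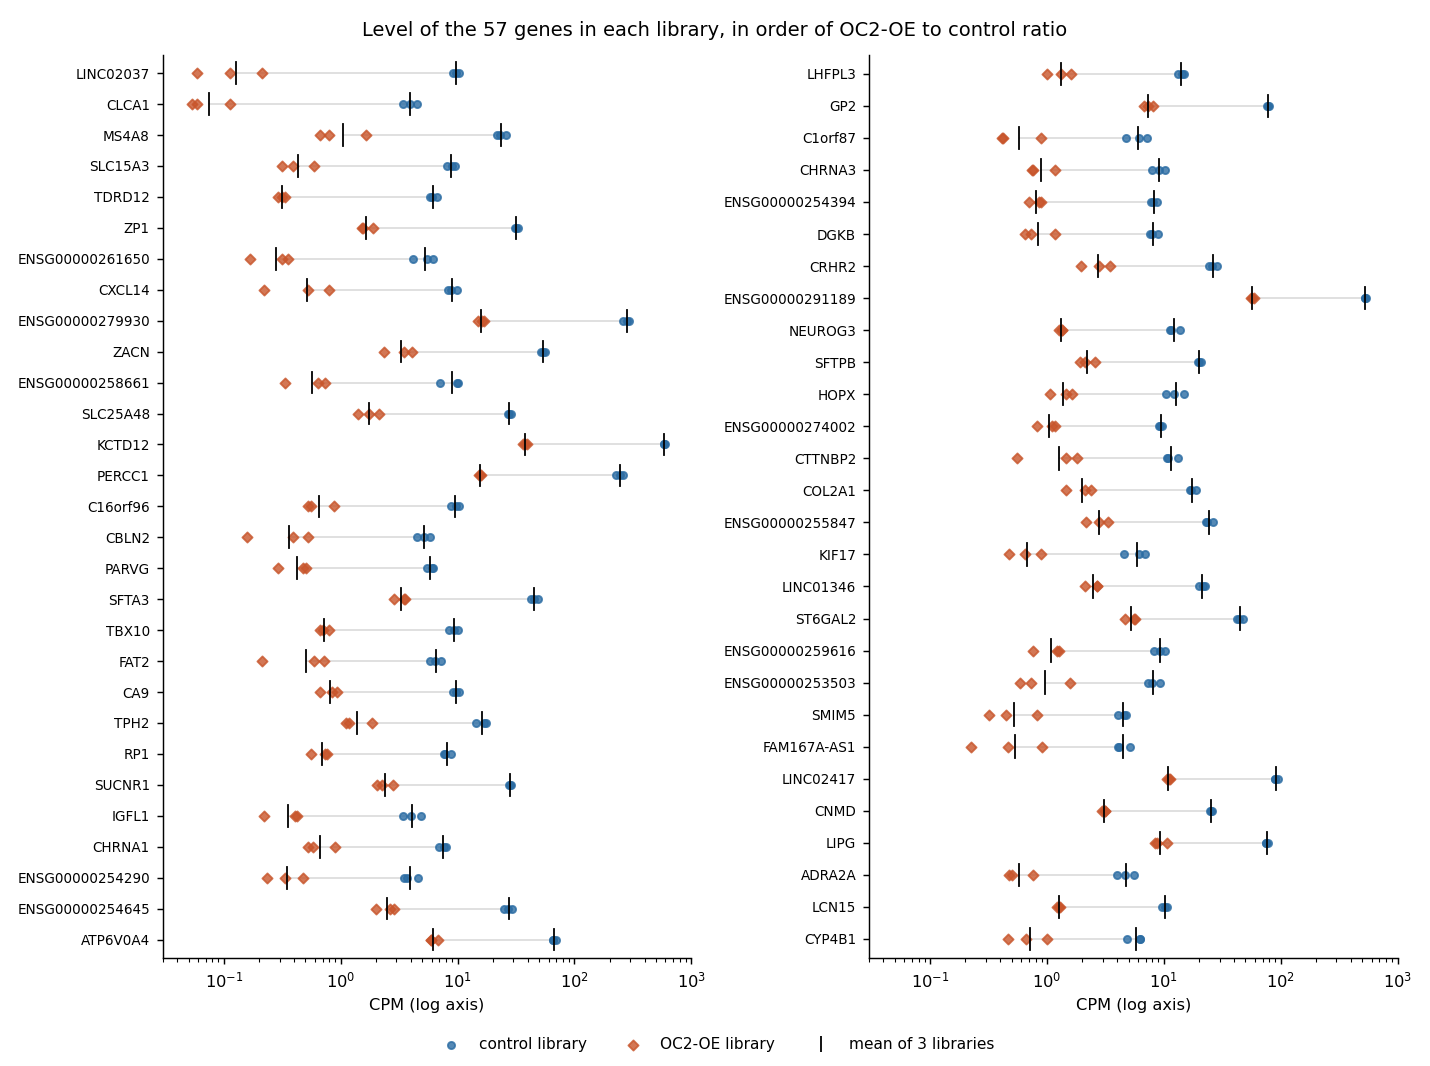
CPM of each of the 57 genes (log axis) in the 3 control libraries (blue circles) and 3 OC2-OE libraries (orange diamonds), with the mean of each group as a vertical tick, in order of ratio from LINC02037 (0.0131) to CYP4B1 (0.124). The 2 groups are apart in every row, and the OC2-OE points spread more widely where the level is lowest.

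The 10 genes whose products are secreted or lie outside the cell were 8.09 to 53 times lower. CLCA1, a secreted protein of goblet cells (chr1:86468368-86500259, plus strand, GRCh38), had the second lowest ratio of the 57, at 0.0189. It measured 3.93, 4.52 and 3.39 CPM in control and 0.053, 0.0586 and 0.112 CPM in OC2-OE. Those OC2-OE levels rest on 4 counts in all, with an exact 95% Poisson interval of 1.09 to 10.2 that covers counting error only, so the fold of 53 is imprecise.

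ZP1, a glycoprotein of the egg coat, was at 30.9, 33.0 and 31.5 CPM in control and at 1.91, 1.52 and 1.56 CPM in OC2-OE, 19.1 times lower. CXCL14, a chemokine made by epithelia, was at 9.84, 8.33 and 8.83 CPM and then at 0.795, 0.528 and 0.223 CPM, 17.5 times lower. GP2, a membrane-anchored glycoprotein of pancreatic granules and intestinal M cells, had the highest level of the 10 genes per length, 80.5 TPM in control. The level of GP2 was tight in both groups, with 79.3, 78.5 and 77.1 CPM in control and 6.79, 8.03 and 7.36 CPM in OC2-OE. LIPG, an endothelial lipase that also lies just inside the threshold, was at 75.7 ± 1.43 and 9.29 ± 1.14 CPM (SD, n = 3).

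CBLN2, a synaptic organizer of the cerebellin family, was at 5.76, 4.46 and 5.2 CPM in control and at 0.159, 0.528 and 0.39 CPM in OC2-OE. IGFL1, an IGF-like secreted protein, had 3.4, 4.87 and 3.99 CPM in control and 0.424, 0.41 and 0.223 CPM in OC2-OE. These 2 genes had only 19 summed counts each in OC2-OE, so their OC2-OE level is known to between 11.4 and 29.7 counts. The cartilage genes COL2A1, which encodes type II collagen, and CNMD, which encodes chondromodulin, were both among the 57. COL2A1 was at 17.1, 16.7 and 18.9 CPM and then at 2.39, 1.47 and 2.12 CPM. CNMD was at 26.0, 25.3 and 25 CPM and then at 3.13, 2.99 and 3.12 CPM, with little spread in either group. The lipocalin LCN15 closed the group at 10.2 ± 0.489 CPM in control and 1.26 ± 0.0324 CPM in OC2-OE (SD, n = 3).

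A pair of genes was associated with pulmonary surfactant. SFTPB encodes surfactant protein B, which lets surfactant spread in the alveolus. It measured 20.9, 19.9 and 19.8 CPM in control and 1.91, 2.58 and 2.12 CPM in OC2-OE, 9.19 times lower. SFTA3, a surfactant-associated gene that lies beside NKX2-1, the transcription factor of lung and thyroid (chr14:36473288-36513829, minus strand), measured 42.5, 44.7 and 48.7 CPM in control and 3.55, 3.46 and 2.84 CPM in OC2-OE, 13.8 times lower. In both genes the 3 OC2-OE libraries lay close together.

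Of 6 receptors and ligand-gated channels, ZACN, a zinc-activated cation channel, had the lowest ratio. It was at 51.9, 55.6 and 53.7 CPM in control and at 4.08, 3.46 and 2.34 CPM in OC2-OE, 16.3 times lower. ZACN overlaps GALR2 on the same strand, and reads in shared exons cannot be assigned to either. GALR2 itself was at 4.89 ± 0.269 and 2.62 ± 0.311 CPM (SD, n = 3), or on the log2 scale −0.95 (adjusted p = 3.04e-07).

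SUCNR1, the receptor for succinate, was at 27.9, 28.5 and 27.4 CPM in control and at 2.28, 2.81 and 2.06 CPM in OC2-OE, 11.7 times lower. The nicotinic acetylcholine receptor subunits CHRNA1, of muscle, and CHRNA3, of autonomic ganglia, were both in the group. CHRNA1 was at 7.64, 7.98 and 6.96 CPM and then at 0.583, 0.528 and 0.892 CPM. CHRNA3 was at 9.16, 7.86 and 10.3 CPM and then at 0.742, 0.762 and 1.17 CPM. Replicate 3 was the highest of the OC2-OE libraries in both subunits, at 16 and 21 counts. CRHR2, a receptor for corticotropin-releasing hormone and urocortins, was 9.57 times lower, at 25.8, 24.5 and 28.3 CPM and then at 3.45, 2.81 and 1.95 CPM. The α2A-adrenergic receptor gene ADRA2A was at 4.72 ± 0.762 and 0.58 ± 0.158 CPM (SD, n = 3).

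The 8 transporters and enzymes were 8.05 to 20.5 times lower. The lowest ratio was that of SLC15A3, a lysosomal carrier of histidine and peptides, with 8.9, 9.5 and 8.17 CPM in control and 0.318, 0.586 and 0.39 CPM in OC2-OE. SLC25A48, a member of the mitochondrial carrier family, was at 27, 28.7 and 27.3 CPM and then at 1.75, 1.41 and 2.12 CPM. The most abundant of the 8 per length was ATP6V0A4, an a subunit of the proton-pumping V-ATPase of kidney and inner ear, at 67.6 TPM in control. Its CPM was 69.1, 66.0 and 66.2 in control and 5.94, 6.74 and 5.97 in OC2-OE, 10.8 times lower.

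TPH2, the neuronal tryptophan hydroxylase that starts serotonin synthesis, was at 16.7, 17.5 and 14.3 CPM in control and at 1.11, 1.17 and 1.84 CPM in OC2-OE. CA9, a carbonic anhydrase induced by hypoxia, was at 9.06, 9.74 and 10.2 CPM and then at 0.848, 0.938 and 0.669 CPM. Both genes were 11.8 times lower. The sialyltransferase ST6GAL2 was at 48.0, 43.7 and 42.7 CPM and then at 5.62, 4.63 and 5.58 CPM. DGKB, a diacylglycerol kinase, and CYP4B1, a cytochrome P450 of the lung, were 9.61 and 8.05 times lower. In CYP4B1 the OC2-OE libraries ran from 0.469 to 1.01 CPM.

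Of the transcription regulators, NEUROG3 is the proneural factor of endocrine progenitors in pancreas and gut. It measured 11.4, 13.7 and 11.6 CPM in control and 1.27, 1.35 and 1.34 CPM in OC2-OE, 9.27 times lower, and its OC2-OE libraries were almost identical. TBX10, a T-box factor, was at 8.38, 9.32 and 10.0 CPM and then at 0.795, 0.703 and 0.669 CPM, 12.8 times lower. HOPX, a homeodomain-only protein of alveolar and stem cells that does not itself bind DNA, was at 10.5, 12.3 and 15 CPM and then at 1.64, 1.06 and 1.45 CPM.

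Of 8 genes of the membrane, cell contacts and cytoskeleton, MS4A8, a membrane protein of the MS4A family (chr11:60699585-60715807, plus strand), had the lowest ratio, 0.0439. It was at 25.8, 21.9 and 23.0 CPM in control and at 0.795, 1.64 and 0.669 CPM in OC2-OE. KCTD12, an auxiliary subunit of GABA-B receptors (chr13:76880175-76886405, minus strand), had the highest CPM of all 57 genes, and its control replicates were the closest. Its level was 587, 591 and 587 CPM in control and 38.9, 36.3 and 38 CPM in OC2-OE, 15.6 times lower. The giant cadherin FAT2 was at 6.39, 5.81 and 7.26 CPM and then at 0.212, 0.586 and 0.725 CPM. PARVG, a focal adhesion protein of blood cells, was at 6.18, 5.45 and 5.99 CPM and then at 0.477, 0.293 and 0.502 CPM. LHFPL3, a tetraspan membrane protein, was at 15, 13.3 and 14.2 CPM and then at 1.33, 0.996 and 1.62 CPM. RP1, a microtubule protein of photoreceptors, was 11.7 times lower. CTTNBP2, a cortactin-binding protein of dendritic spines, was 9.04 times lower, and the kinesin KIF17 was 8.74 times lower.

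Among the remaining protein-coding genes, PERCC1, a gene needed for enteroendocrine cells of the gut (chr16:1431078-1434441, plus strand), was the second most abundant coding gene of the 57 by CPM and the first per length, at 524 TPM in control and 33.4 TPM in OC2-OE. It had 4296, 4163 and 4274 counts in control and 298, 261 and 280 counts in OC2-OE. TDRD12, a Tudor domain protein of the germline piRNA pathway, was at 5.76, 6.69 and 6.05 CPM and then at 0.318, 0.293 and 0.335 CPM, 19.6 times lower. The open reading frames C16orf96 and C1orf87 were 14.6 and 10.4 times lower, and SMIM5, a small membrane protein, was 8.42 times lower.

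The other 15 genes were not annotated as protein-coding in GENCODE release 29, with 10 long intergenic RNAs, 3 antisense RNAs, 1 transcript to be experimentally tested and 1 identifier without a type. Protein-coding genes made up 73.7% of the 57, against 93.6% of genes at the count minimum and 88.2% of the other 6192 genes at the count minimum whose control CPM lay below its median. LINC02037 (chr3:194247617-194260720, plus strand) had the lowest ratio of the 57, 0.0131. It measured 9.16, 9.74 and 10.3 CPM in control and 0.212, 0.0586 and 0.112 CPM in OC2-OE. Only 7 counts remained in the OC2-OE libraries together, with an exact 95% Poisson interval of 2.81 to 14.4, and the nearest tested genes, HES1 and LINC00887, had log2 fold changes of −1.68 and −1.27.

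The most abundant RNA per length was LINC02417 (chr12:3367833-3371346, plus strand), at 736 TPM in control and 87.6 TPM in OC2-OE. It had 94.6, 88.6 and 90.1 CPM in control and 10.6, 11 and 11.2 CPM in OC2-OE. ENSG00000279930, the transcript still to be tested (chr16:1437154-1439315, plus strand), had 4999, 4768 and 4883 counts in control and 305, 287 and 270 counts in OC2-OE, 17.4 times lower. ENSG00000261650 (chr12:130024493-130044956, minus strand) was 18.9 times lower, but it overlaps LINC02418 on the same strand with starts 101 bases apart, and the counts of these genes may be split between them. In all, 14 of the 57 overlap another gene on the same strand. LINC02418 itself had a ratio of 0.129, just outside the threshold.

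ENSG00000291189, which starts back to back with LINC02417 (chr12:3296202-3366177, minus strand), was second only to KCTD12 in CPM. It had 528, 522 and 536 CPM in control and 58.7, 56.4 and 55.9 CPM in OC2-OE, 9.27 times lower. The antisense gene ENSG00000258661 on chromosome 14 was at 7.12, 10.1 and 9.86 CPM and then at 0.742, 0.645 and 0.335 CPM. The antisense gene ENSG00000255847 and the intergenic ENSG00000254645, both on chromosome 11, had like levels in control, 24.3 ± 1.65 and 27.3 ± 2.19 CPM, and in OC2-OE, 2.77 ± 0.584 and 2.5 ± 0.446 CPM (SD, n = 3). LINC01346 on chromosome 1 was at 21.3 ± 1.27 and 2.5 ± 0.327 CPM (SD, n = 3). The intergenic ENSG00000274002, ENSG00000259616, ENSG00000254394, ENSG00000253503 and ENSG00000254290 and the antisense FAM167A-AS1 had between 3.92 and 9.38 CPM in control and were 8.41 to 11.2 times lower. ENSG00000253503 lies inside ENSG00000254394 on the opposite strand of chromosome 8, and its OC2-OE replicate 1, at 1.59 CPM, was above replicates 2 and 3, at 0.586 and 0.725 CPM. FAM167A-AS1, at 0.901, 0.469 and 0.223 CPM in OC2-OE, varied most of the 57 there, and its log2 fold change of −3.09 became −3.73 without OC2-OE replicate 1.

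The spread between replicates followed the level. The coefficient of variation of CPM over 3 libraries had a median of 7.38% in control and 23.8% in OC2-OE, where 26 of the 57 genes had fewer than 50 summed counts. No gene was at 0 in any library.

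Some of the 57 genes lay near each other. A start of another of the 57 was within 250 kb of 11 genes (19.3%), while 222 of 12416 other genes at the count minimum (1.79%) had 1 of the 57 within that distance. On chromosome 11, MS4A8, ZP1 and SLC15A3 followed each other over intervals of 168 and 85.1 kb. LINC02417 and ENSG00000291189 started 1.66 kb apart on opposite strands of chromosome 12. PERCC1 and ENSG00000279930 started 6.08 kb apart on the same strand of chromosome 16, and CXCL14 lies inside SLC25A48 on the opposite strand of chromosome 5. These shares are a description with no test, and genes that share a position are not independent of each other.

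The genes next to the 57 were a measure that the choice did not use. The tested genes nearest to them, 2 on each side and without the 57 themselves, came to 214. Of these, 104 (48.6%) were called lower and 37 (17.3%) higher, against 28.7% and 27.8% of all tested genes, and their median log2 fold change was −0.22, against 0.01. With 1 gene on each side, 61 of 109 (56.0%) were called lower, and with 5 on each side 192 of 514 (37.4%). Leaving out neighbours that overlap 1 of the 57 gave 88 of 192 (45.8%), and neighbours with at least 200 control counts gave 83 of 154 (53.9%), against 35.1% of all genes at that minimum.

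Around the 25 genes that were at least 8 times higher in OC2-OE, without ONECUT2, the shares ran the other way. Of 96 neighbours, 2 on each side, 40 (41.7%) were called higher and 23 lower.

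**Figure D3:**
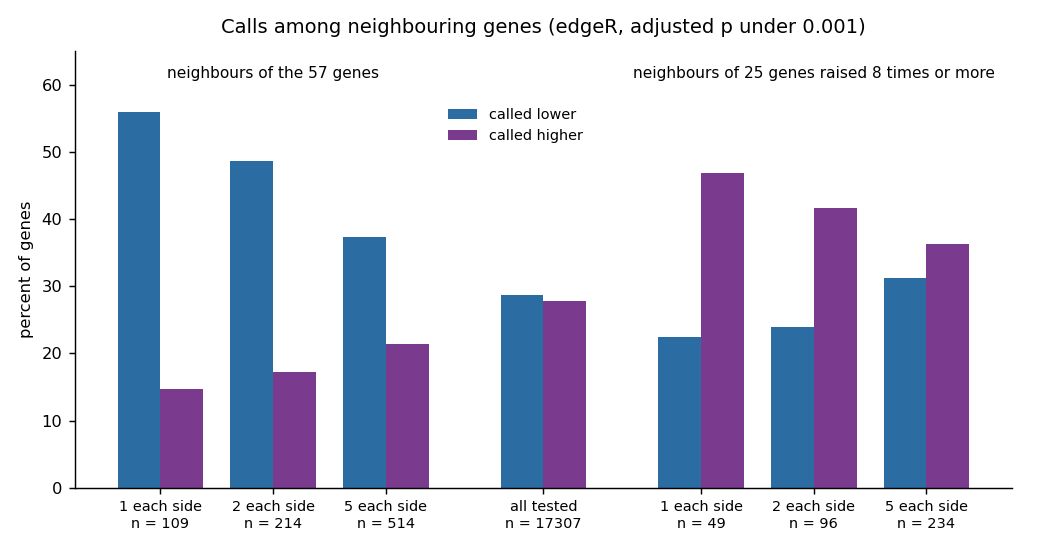
Percent of neighbouring genes called lower (blue) and higher (purple) by edgeR at an adjusted p under 0.001, for 1, 2 or 5 tested genes on each side of the 57 genes, for all tested genes, and for the same numbers of neighbours of 25 genes raised at least 8 times. Beside the 57 genes the lower calls fall from 56.0% to 37.4% as more distant neighbours are taken, and all tested genes are at 28.7%.

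The number of lower genes differed between positions. Around SFTA3 on chromosome 14, 8 of the 9 other tested genes within 400 kb were called lower and none higher. ENSG00000257520.2, among the 8, overlaps SFTA3 on the same strand and is not independent of it. NKX2-1 was at 141 ± 7.13 and 32.1 ± 1.15 CPM (SD, n = 3; log2 fold change −2.18, adjusted p = 6.45e-79). PAX9, a transcription factor of foregut endoderm that starts 1.23 kb from the antisense gene ENSG00000258661, changed by −2.33 (adjusted p = 1.44e-92). NKX2-8, between them, was at 0.828 and 1.21 CPM and was not called.

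Within 400 kb of ZP1, 7 of the 9 other genes were called lower and none higher, with log2 fold changes of −2.33 for MS4A15, −1.33 for CD6 and between −0.89 and −0.16 for the other 5. Within 400 kb of LINC02417, 6 of 11 other genes were called lower and 3 higher, the latter by at most 0.61 on the log2 scale. The methyltransferase gene PRMT8 starts 13.5 kb away and was at 127 ± 1.23 and 21.1 ± 0.437 CPM (SD, n = 3), or on the log2 scale −2.64 (adjusted p = 4.22e-84). Within 400 kb of PERCC1 and ENSG00000279930, 5 of 25 other genes were called lower and 8 higher. The nearest, UQCC4 and CCDC154, were at −0.38 (called lower) and −0.56 (not called), and the next, UNKL and CLCN7, rose by 0.61 and 0.64 on the log2 scale.

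**Figure D4:**
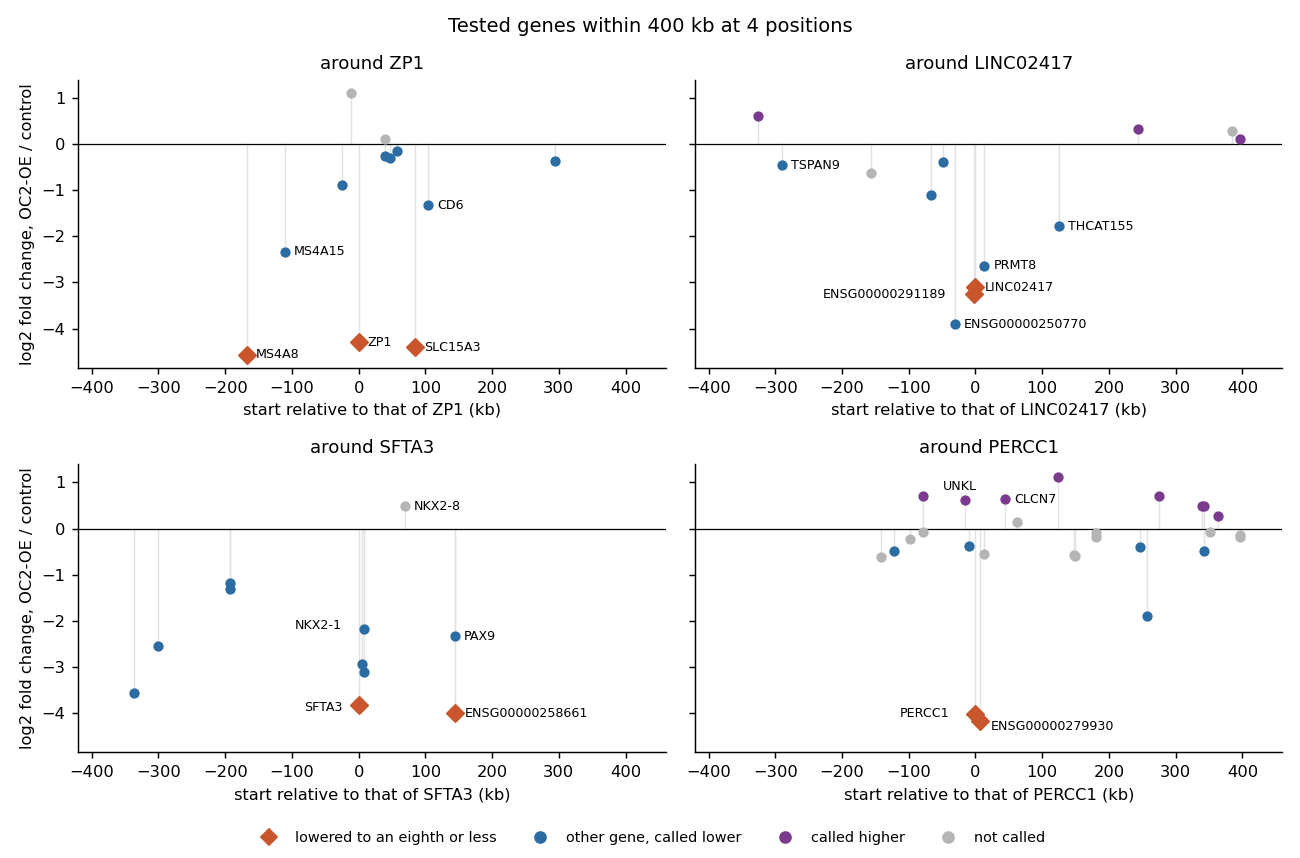
Log2 fold change (vertical axis) of tested genes by the distance of their start from ZP1, LINC02417, SFTA3 or PERCC1 in kb (horizontal axis). Diamonds are genes of the 57, and circles are other genes, coloured by their call. Around SFTA3 nearly all genes lie below 0, whereas around PERCC1 they scatter about 0.

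The named extremes among the 214 neighbours were ENSG00000253414.4 and ENSG00000250770 at the low end and LIVAR and PCDH8 at the high end. ENSG00000253414.4 had 51 counts in control and 2 in OC2-OE. ENSG00000250770, at 118 and 8 counts, overlaps ENSG00000291189 on the same strand and is not independent of it. PCDH8, a protocadherin beside CNMD, was at 2.34 ± 0.314 and 14.1 ± 0.246 CPM (SD, n = 3), a rise on the log2 scale of 2.54 (adjusted p = 8.56e-37). LIVAR, a tested neighbour of CBLN2 only in order, since it starts 2300 kb away, rose by 3.12 on the log2 scale (adjusted p = 2.74e-28) from 40 to 372 counts.

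Relatives by gene symbol were compared next. Of 158 tested genes that share a symbol stem with 1 of the 57, 53 (33.5%) were called lower and 44 (27.8%) higher, near the shares of all tested genes, and their median log2 fold change was −0.04, or 0.01 with scaling by library size only. Most of the 158 came from the large SLC25A, KIF, SMIM and KCTD stems, so the pooled shares say little about the smaller stems. CXCL14 differed from most of its relatives. Of the 10 other CXCL chemokine genes tested, 8 were called higher, among them CXCL3, which went from 0.469 ± 0.107 to 72.9 ± 2.68 CPM (SD, n = 3; log2 fold change 7.19, adjusted p = 1.95e-88), and 1, CXCL13, was called lower (−2.55, adjusted p = 1.47e-09).

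CHRNA5, which overlaps CHRNA3 on the opposite strand and was chosen after its value was seen, rose from 12.3 ± 0.426 to 26.1 ± 1.73 CPM (SD, n = 3; log2 fold change 1.04, adjusted p = 1.6e-24). TPH1, the peripheral paralog of TPH2 and also chosen after its value was seen, fell from 8.49 ± 1.24 to 2.47 ± 0.144 CPM (SD, n = 3; −1.83, adjusted p = 6.76e-22). The lowest relatives were the kinesin KIF12 (−2.90, adjusted p = 1.54e-53) and the mitotic kinesin KIF20A (−2.67, adjusted p = 3.8e-85), both relatives of KIF17. The lipocalin LCN2 had 1 count in the control libraries together and 196 in OC2-OE, so that its fold is poorly known.

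Of 9 gene lists of neural, secretory and foregut functions, 6 held none of the 57, and the receptor, matrix and transcription factor lists held 1 each, which are CHRNA3, COL2A1 and NEUROG3. The lists are not complete and leave out others of the 57 with like functions, among them CHRNA1, ADRA2A, ZACN, TPH2 and TBX10. They therefore do not show how many of the 57 have such functions. In each count below the 57 are left out, and 28.7% of tested genes were called lower and 27.8% higher. Of neurotransmitter receptors, 13 of 27 tested genes were lower and 3 higher, with a median log2 fold change of −0.52. GABBR2, a GABA-B receptor subunit with which KCTD12 associates, went from 83.1 ± 1.9 to 11.1 ± 0.653 CPM (SD, n = 3; −2.96, adjusted p = 5.26e-78), and the glutamate receptor gene GRIA1 from 53 to 7 counts (−2.94, adjusted p = 1.94e-07). GRIA3 rose from 5 to 79 counts (adjusted p = 1.84e-11) and GRM5 by 1.20 on the log2 scale (adjusted p = 7.18e-07).

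Of neural and foregut transcription factors, 21 of 41 were lower and 10 higher, with a median of −0.35. NEUROD1, which acts after NEUROG3 in endocrine differentiation, was at 282 ± 9.85 and 58.6 ± 0.412 CPM (SD, n = 3; −2.32, adjusted p = 2.58e-94). SOX9 and TFAP2B were the highest, at 2.60 (adjusted p = 1.61e-47) and 2.49 (14 and 85 counts, adjusted p = 9.86e-09). Of genes of the extracellular matrix and its enzymes, 14 of 40 were lower and 12 higher, with a median of 0.16, or 0.37 without OC2-OE replicate 1. The lysyl oxidase LOXL2 fell by 2.56 and SPOCK3 by 2.52 on the log2 scale (adjusted p = 1.81e-41 and 6.98e-14), while tenascin C (TNC) rose by 4.91 (adjusted p = 4.29e-88) and MMP7 went from 0 to 152 counts.

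The ion channel list had 12 of 25 genes lower and 5 higher, with KCNB2 at −2.14 (adjusted p = 2.94e-39), KCNK10 at 71 and 1 counts, and SCN3B and CACNA2D1 at 1.3 and 1.19 (adjusted p = 6.68e-46 and 2.64e-40). The synaptic vesicle and secretion list had 17 of 34 lower and 7 higher. Aromatic amino acid decarboxylase (DDC), which follows tryptophan hydroxylase in serotonin synthesis, was at 493 ± 14.9 and 88.7 ± 2.67 CPM (SD, n = 3; −2.52, adjusted p = 4.85e-106). DBH was at −2.39 (66 and 13 counts, adjusted p = 1.45e-07), RAB27B at 2.14 (adjusted p = 4.52e-56) and RIMS1 at 1.19 (adjusted p = 9.36e-11).

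Of neuropeptides and hormones with their processing enzymes, 9 of 21 were lower and 7 higher. Without OC2-OE replicate 3, 6 of 23 were lower and 7 higher, and with scaling by library size only, 7 of 21 were lower and 8 higher. The prohormone convertases moved apart. PCSK1 had 302821 counts in control and 52485 in OC2-OE (−2.61, adjusted p = 4.87e-129), whereas PCSK2 was at 4.64 ± 0.177 and 168 ± 1.08 CPM (SD, n = 3; 5.13, adjusted p = 1.05e-103). NPY fell by 2.74 on the log2 scale (adjusted p = 6.01e-06), from only 40 counts in control to 6, and SCG2 rose by 1.5 (adjusted p = 1.01e-99).

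Growth factors and morphogens had 21 of 46 genes lower and 9 higher. TGFB2, also just outside the ratio threshold, fell by 2.99 (adjusted p = 2.09e-88) and PDGFRA, at 83 and 17 counts, by 2.34 (adjusted p = 1.35e-08). FGF19 and DKK3 rose by 6.4 and 4.41 (adjusted p = 1.71e-62 and 1e-84), FGF19 from 14 to 1287 counts. Axon guidance genes were divided, with 14 of 31 lower and 12 higher. EPHA4 and EPHA7 fell by 2.78 and 2.43 (adjusted p = 2.55e-53 and 3.55e-44). NTNG2 and ROBO3 rose by 2.79 and 2.63 (adjusted p = 2.76e-16 and 2.55e-23), from only 25 and 49 counts in control. Of adhesion genes, 17 of 40 were lower and 10 higher. CDH10 had 94 and 2 counts, and CADM2 was at −2.50 (87 and 16 counts, adjusted p = 3.71e-09). PCDH8 was at 2.54 and PCDH7 at 2.35 (42 and 228 counts for PCDH7, adjusted p = 1.05e-16).

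Promoters were a further measure that the choice did not use. RefSeq (GRCh38.p14) gave a promoter window, 250 bases before to 50 after the start, for 40 of the 57 genes, and in 28 of them that start lay within 1000 bases of the outermost start in the files. CpG dinucleotides, the sites of DNA methylation, are dense in most promoters of broadly used genes and sparse in many promoters of tissue-restricted genes. Their observed to expected ratio had a median of 0.547 in the 40 promoters and 0.847 in 9901 other genes at the count minimum. A ratio of at least 0.6 was found in 18 of 40 (45.0%) and in 84.4% of those other genes. Over all 27305 promoters of the table, genes of low or no expression here included, the median was 0.58 and 49.0% had a ratio of at least 0.6.

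Since the 57 genes were modestly expressed, the share was also taken in 4773 other genes with control CPM below the median, where it was 79.6%. It was 67.0% in 658 other genes with a ratio of at most 0.5, and 61.9% in 21 genes that were at least 8 times higher in OC2-OE. The 28 promoters with matching starts gave 42.9%.

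Promoters rich and poor in CpG are shown by 4 examples, each given as the 250 bases before the start, 5′ to 3′ on the gene's strand, with CpG dinucleotides in capitals. KCTD12 (chr13:76886406-76886655, minus strand) and NEUROG3 (chr10:69573423-69573672, minus strand) have 34 and 25 CpG. MS4A8 (chr11:60699362-60699611, plus strand) and SFTPB (chr2:85668742-85668991, minus strand) have 1 each.
KCTD12: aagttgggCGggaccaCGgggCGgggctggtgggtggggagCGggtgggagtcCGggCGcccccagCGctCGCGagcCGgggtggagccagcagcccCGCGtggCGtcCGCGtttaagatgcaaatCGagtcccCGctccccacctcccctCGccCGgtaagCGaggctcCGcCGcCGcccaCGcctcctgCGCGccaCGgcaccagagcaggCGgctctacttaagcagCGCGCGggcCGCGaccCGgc
NEUROG3: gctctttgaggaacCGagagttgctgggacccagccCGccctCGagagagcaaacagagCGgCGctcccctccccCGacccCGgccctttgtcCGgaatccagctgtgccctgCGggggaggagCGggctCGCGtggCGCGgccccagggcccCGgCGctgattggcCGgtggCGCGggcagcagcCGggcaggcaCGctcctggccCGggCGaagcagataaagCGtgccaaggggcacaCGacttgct
MS4A8: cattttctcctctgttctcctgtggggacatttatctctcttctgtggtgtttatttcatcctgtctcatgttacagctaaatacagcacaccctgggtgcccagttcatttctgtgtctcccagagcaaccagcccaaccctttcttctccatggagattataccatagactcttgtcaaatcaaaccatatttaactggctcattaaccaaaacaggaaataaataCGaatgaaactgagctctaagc
SFTPB: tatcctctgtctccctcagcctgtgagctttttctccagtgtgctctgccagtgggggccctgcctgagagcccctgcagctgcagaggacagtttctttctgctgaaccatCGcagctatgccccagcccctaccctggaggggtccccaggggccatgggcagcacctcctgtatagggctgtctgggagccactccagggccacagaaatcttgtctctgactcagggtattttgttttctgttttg

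Letters of a ONECUT binding site, ATCGAT and its variant ATTGAT, were sought on both strands of the windows. ATCGAT, which reads the same on both strands, was in 1 of 40 promoters (2.5%), that of TBX10, in 0.776% of all 27305 promoters of the table and in 0.757% of those of other genes at the count minimum. ATTGAT was in 0 of 40, in 6.4% of all promoters and in 3% of those at the count minimum. The AP-1 letters TGANTCA were in 3 of 40 (7.5%), in 7.76% of all and in 4.32% of those at the count minimum. A match describes letters only, and its absence says only that the window lacks them. The TBX10 promoter (chr11:67639764-67640013, minus strand) is shown for its match, in capitals, whose first base lies at −133 from the start.
TBX10: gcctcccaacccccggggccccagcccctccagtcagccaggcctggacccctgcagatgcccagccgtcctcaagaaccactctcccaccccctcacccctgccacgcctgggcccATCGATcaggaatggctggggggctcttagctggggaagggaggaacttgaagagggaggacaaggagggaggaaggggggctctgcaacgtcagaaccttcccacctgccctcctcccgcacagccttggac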

How the data were processed

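RNA-Seq was performed on 6 DMS53 libraries, 3 control and 3 OC2-OE. The authors aligned stranded poly(A) reads to GRCh38 and deposited raw counts of read pairs per gene of GENCODE release 42. The submitters' processing notes name FastQC 0.11.8, STAR 2.7.9a and featureCounts 1.6.0, besides edgeR and limma. Totals of 16533284 to 19099337 counts limit the precision of genes with few counts, and intervals cover counting error only.

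CPM used the file totals, and TPM the files' exonic lengths. Symbols were matched for 62672 of 62696 genes. Counts were tested in R 4.3.3 with edgeR 4.0.16 (TMM, filterByExpr, quasi-likelihood test, no replicate term, 17307 genes), with Benjamini-Hochberg adjustment and a threshold of 0.001. On simulated counts over 16972 genes the step recovered 195 of 200 changed genes. These were all lowered, were drawn only from genes above a count floor, and had the same simulated replicate variation as every other gene. The recovery therefore does not cover genes with few counts. Alternatives used DESeq2 1.42.0, limma 3.58.1 (voom), other scalings and filters, a replicate block and each library left out. Replicate numbers did not pair the libraries.

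The 57 genes and the lists were chosen with earlier results of these data known. Genes named were the 30 with the lowest ratio, those on a list or with control TPM of at least 20, the 2 lowest and 2 highest called among neighbours, relatives and each list, and those at the thresholds. Grouping by role, the neighbours of raised genes, the promoter shares below the median control CPM and all other names were chosen after values were seen. Gene types came from GENCODE release 29.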

Additional observations from a re-analysis of the deposited data

How the results depend on the processing

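All 57 genes kept a lower level in OC2-OE in the 513 refits of their log2 fold changes (DESeq2, voom, the replicate block and each library left out), which lay between −6.75 and −2.72, and 13 of these moved by more than 1 SD. The genes were chosen for a large fall in these same libraries, so the direction in the refits was fixed in advance. Only the size of the change is described by them. The number of genes that met the rule was 59 with TMM or DESeq2 size factors, with CDHR3 and LINC02418 added, and 74 with at least 100 control counts. It was 31 with at least 500 control counts, 34 with a ratio of at most 0.1, and 31 when the lowest control library had to be at least 8 times every OC2-OE library. Leaving out 1 library at a time, with the count minimum scaled to the control libraries left, gave 53 to 56, and 41 of the 57 met the rule each time. The calls over all genes numbered 9776, and 9642 with the replicate block. Same-numbered libraries deviated together with r of 0.000319, 0.0302 and 0.0244, so the numbers were not taken as pairs. Every other count for neighbours, relatives, lists and promoter letters stayed within 1.5 times its value under the alternatives run. Depth limits the 26 genes with fewer than 50 counts in OC2-OE, whose ratios are least exact.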
